A study of Drosophila melanogaster with 12 samples.

Results

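Spermatogonia cut out of wild-type testes are set here directly beside testes whose germ cells stop at the mitotic stage. Both kinds were deposited with the same gene levels for their common partner, dissected meiotic cells. The comparison covers 334 genes, those listed for dissected spermatogonia and for at least 1 of 3 mutants, out of 1457 genes listed anywhere in the series. Of these, 232 were shared with the tut mutant, 236 with the bam mutant and 220 with the bgcn mutant. There were 135 listed for all 3 mutants, 84 for 2 of them and 115 for 1. The tables list genes that the authors selected for a 3′ extension, the stretch past the proximal 3′ end of a transcript, that differed from meiotic cells. The choice of genes therefore used each side's contrast with meiotic cells, but no comparison of spermatogonia with a mutant.

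The study sequenced RNA of Drosophila melanogaster testis in 12 libraries, 9 of them in the groups compared here. SG is wild-type mitotic germ cells obtained by laser dissection, with 3 libraries. SG-tut is from tut3 testes, SG-bam from bamBG/bamΔ86 testes and SG-bgcn from bgcn20093/bgcnQS2 testes, with 2 libraries each of whole testes filled mainly with germ cells that stayed in mitosis. SC, meiotic germ cells dissected from wild-type testes, was the common partner in all 4 tables. It enters no difference between SG and a mutant given here, and its levels are set beside those of SG in places only as a description. For SG, cDNA came from the SMARTer Ultra Low Input kit and libraries from Nextera XT. For the mutants, Trizol RNA was enriched for mRNA on Dynabeads and the Illumina mRNA-Seq preparation was used. The sides thus differ in genotype, dissection and kit at once, and these cannot be told apart. Whole testes also contain somatic cells, and in such bulk samples fewer cells of a type and less RNA per cell cannot be told apart either. Whether a group's libraries were made from different flies is not stated.

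In the fly testis, the daughter of a germline stem cell divides as a cluster of spermatogonia that stay joined to each other, and then leaves mitosis to become a spermatocyte. Bam, Bgcn and Tut act together on target messages to end these divisions, and males lacking any of them fill the testis with cells that go on dividing. The 3′ end of a message is where its length can vary through alternative cleavage and polyadenylation, and it holds sites read by RNA-binding proteins and small RNAs.

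Each group has only its authors' average per gene, so no spread between libraries exists and no difference could be tested. In place of a replicate error, the range of the 3 mutant genotypes is given. It is the spread between genotypes made in the same way, not between replicates. The SC gene level was the same beside SG and beside the mutant for 232 of 232, 236 of 236 and 220 of 220 shared genes. These values are for tut, bam and bgcn, the order used wherever 3 values follow each other below. The SC values are thus common to both sides, which does not show that SG and mutant levels are comparable across kits. Depth per library is unknown, and the levels come without a named unit. The genes whose function is lost in the mutants could not serve as a check of the labels. bam and bgcn were in no table, and tut was listed for SG alone, at a gene level of 44.2.

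The 3 mutants lay close to each other, and SG lay apart from them. Over the 135 genes listed in all 4 tables, the range of the 3 mutant levels had a median of 0.24 on the log2(level + 1) scale, and was at most 1 in 130 genes. The distance from SG to the nearest mutant had a median of 0.75 on the same scale. SG was farther from the nearest mutant than the mutants were from each other in 101 of the 135 genes, with the mutants higher in 77 and lower in 24. The median absolute difference between a pair of mutants was 0.15 for tut and bam, 0.15 for tut and bgcn, and 0.14 for bam and bgcn. Between SG and each mutant it was 0.92, 0.89 and 0.82. At least 4-fold apart were 1, 0 and 1 genes in the pairs of mutants, against 23, 24 and 19 genes between SG and each mutant. All values set against SG here include a shift of most genes toward higher levels in the mutants, described next. The median of 0.75 and the 101 genes were not computed with that shift removed.

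Gene levels in the mutants tended to be above those in SG. A gene is counted below when its levels, each plus 1, differed at least 4-fold. In SG-tut 25 of 232 genes were counted as higher than in SG (10.8%) and 14 as lower (6.03%). In SG-bam 25 of 236 were higher (10.6%) and 8 lower (3.39%). In SG-bgcn 19 of 220 were higher (8.64%) and 9 lower (4.09%). The median difference over all shared genes was 0.46, 0.54 and 0.48 (log2). With that median set to 0, 14 genes were higher and 17 lower in SG-tut, 10 and 14 in SG-bam, and 8 and 14 in SG-bgcn, so higher genes did not outnumber lower ones relative to that median. It is called the general shift below, but it did not hold for all genes alike. The median was -0.53, -0.45 and -0.22 in the shortest of 4 bins of exon length and 0.92, 1.0 and 0.93 in the longest. Removing 1 value from every gene does not allow for this. The ranking of genes was alike on both sides, with Spearman correlations across genes of 0.80, 0.83 and 0.81, and 128, 132 and 126 genes lay within 2-fold. These correlations are across genes of the same tables, which are not independent replicates.

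**Figure D1:**
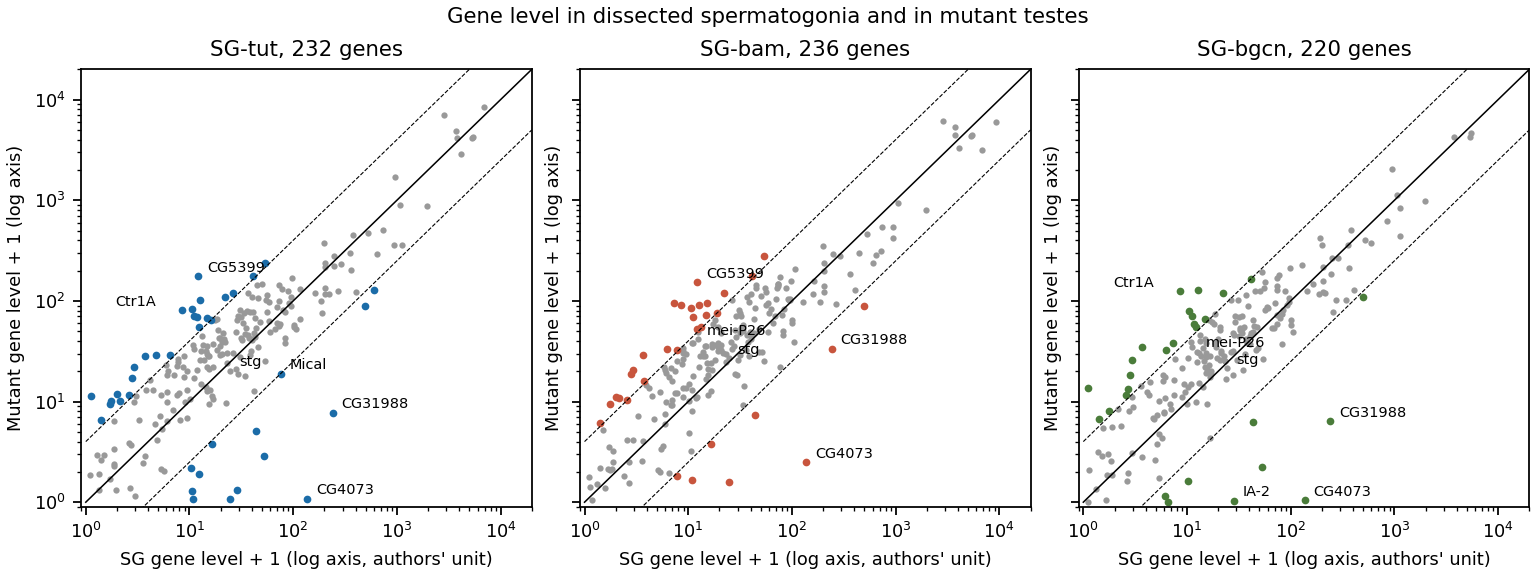
Gene level plus 1 in SG (x axis, log) against each mutant (y axis, log), 1 point per shared gene, with the line of equality solid and the 4-fold lines dashed. Coloured points are at least 4-fold apart: 25 above and 14 below in SG-tut, 25 and 8 in SG-bam, 19 and 9 in SG-bgcn.

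Of the 135 genes listed in all 4 tables, 14 were at least 4-fold higher in every mutant than in SG (10.4%) and 4 were at least 4-fold lower in every mutant (2.96%). In all of these 18 genes the distance to SG exceeded the range of the mutants. The choice at 4-fold nearly fixed this, as that range was at most 1 (log2) in 130 of the 135 genes. After the general shift was removed, 7 higher and 6 lower genes were counted.

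Ctr1A (chrX:6661647-6668258, dm6), a copper transporter of the cell membrane, had a gene level of 7.52 in SG and of 80.0 in SG-tut, 90.8 in SG-bam and 124 in SG-bgcn. Each mutant was thus 10.6-fold, 12.1-fold and 16.4-fold above SG in deposited level. Lsd-2, a perilipin that coats lipid droplets, stood at 9.52 in SG and at 82.5, 84.8 and 79.1 in the mutants. Gpdh, glycerol-3-phosphate dehydrogenase, stood at 11.7 in SG and at 101, 90.6 and 127 in the mutants. In these 3 genes every mutant was at least 7.75-fold above SG, and the mutants lay within 0.62 of each other on the log2 scale. Ppcs, an enzyme of coenzyme A synthesis, had a level of 1.79 in SG and of 16.2, 17.8 and 17.5 in the mutants. CG30463, which the current annotation names Pgant9, encodes an enzyme that starts O-linked glycosylation, and had a level of 2.69 in SG against 27.2, 27.9 and 33.9.

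CanA-14F, a catalytic subunit of the calcium-activated phosphatase calcineurin, had a level of 1.95 in SG and of 21.0, 19.7 and 24.9 in the mutants. mub, an RNA-binding protein with KH domains that acts in splicing, stood at 10.2 in SG and at 69.2, 67.8 and 69.9. YT521-B, a nuclear reader of methylated adenosine in RNA, stood at 11.2 in SG and at 53.7, 52.1 and 54.4. The mutant values of mub and YT521-B were nearly identical, within 0.04 and 0.06 of each other on the log2 scale. Ank, an ankyrin that ties membrane proteins to the cytoskeleton, had a level of 21.2 in SG and of 109.6, 118 and 119. PlexA, a semaphorin receptor, stood at 13.9 in SG and at 67.4, 71.1 and 65.1. The other genes higher in every mutant were Elf, CG14440, CG14446 and CG31145. Ctr1A, CG30463, Lsd-2, Gpdh, CanA-14F, Ppcs and mub kept 4-fold after the general shift was removed, and Ank, PlexA, YT521-B, Elf, CG14440, CG14446 and CG31145 did not.

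**Figure D2:**
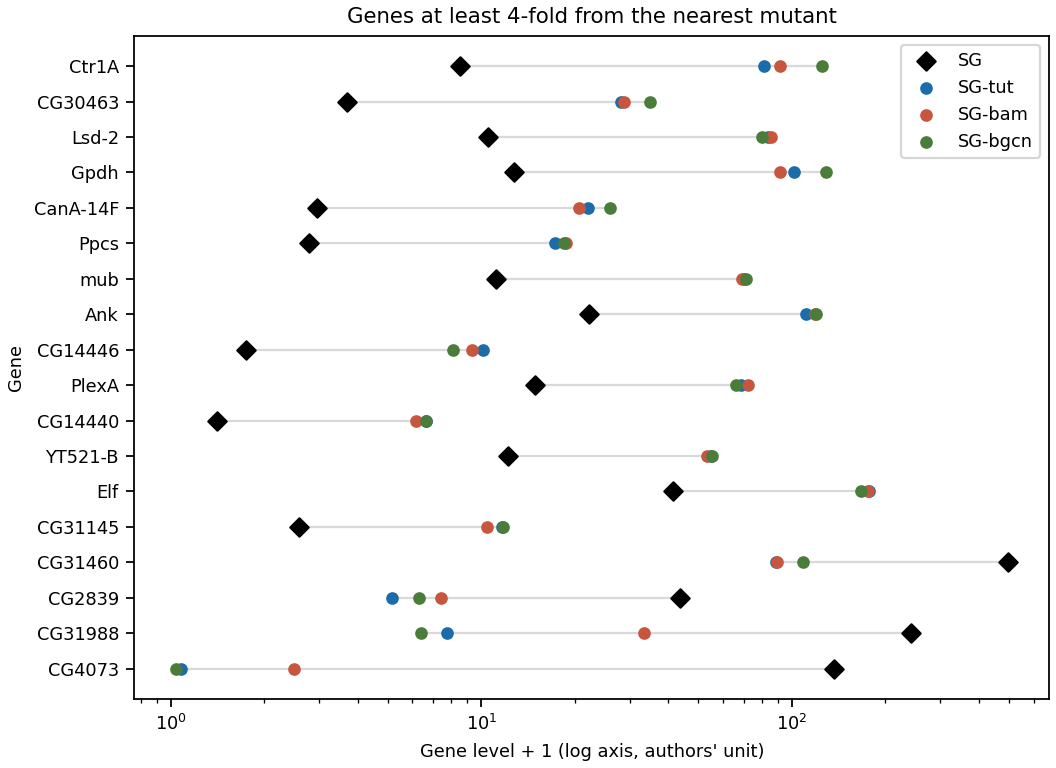
Gene level plus 1 (x axis, log) of the 18 genes at least 4-fold from the nearest mutant, with SG as diamonds and each mutant as a coloured circle. The mutants lie together on the right of SG for 14 genes and on its left for CG31460, CG2839, CG31988 and CG4073.

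Some genes far above SG were listed for fewer mutants. CG5399 had a level of 11.2 in SG, 175 in SG-tut and 152 in SG-bam, and was not listed for SG-bgcn. Amun, a nuclear protein, stood at 6.36 in SG and 94.3 in SG-bam. CG3014 stood at 0.12 in SG, 10.4 in SG-tut and 12.6 in SG-bgcn, and its fold rests on an SG level near 0. l(2)gl, the polarity gene known as a tumour suppressor in flies, stood at 14.2 in SG and 95.2 in SG-bam, the only mutant for which it was listed. nej, the CBP acetyltransferase of histones, stood at 3.71 in SG and 27.7 in SG-tut.

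Genes lower in the mutants were fewer, and several were close to 0 there. CG4073 (chr3R:10714798-10715901, dm6) had a gene level of 135.6 in SG and of 0.08 in SG-tut, 1.49 in SG-bam and 0.04 in SG-bgcn, the largest difference in each comparison (log2 difference of -6.98, -5.78 and -7.04). CG31988 stood at 240.3 in SG and at 6.77, 32.4 and 5.4 in the mutants, and its SG extension touches an exon of another gene. Its mutants spread over 2.38 on the log2 scale, more than in any of the other 17 genes plotted by nearest mutant. CG2839 stood at 42.6 in SG and at 4.15, 6.4 and 5.3. CG31460 stood at 494 in SG and at 88.0, 88.5 and 108.

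Other lower genes were listed for fewer mutants, or were 4-fold lower in some of them only. IA-2, a receptor tyrosine phosphatase-like protein of secretory vesicles, stood at 27.5 in SG, 0.33 in SG-tut and 0.03 in SG-bgcn. Glut3, a glucose transporter, stood at 23.8 in SG, 0.07 in SG-tut and 0.6 in SG-bam. CG12163, named CtsF in the current annotation and a cathepsin protease, stood at 51.8 in SG, 1.87 in SG-tut and 1.24 in SG-bgcn. CG14106 stood at 9.87 in SG, 0.08 in SG-tut and 0.66 in SG-bam. CG14540 stood at 9.55 in SG, 0.28 in SG-tut and 2.22 in SG-bam. In deposited level its SG value was 4.30-fold above SG-bam, but with 1 added to each level it was short of 4-fold. CG12511 stood at 9.27 in SG and at 1.2, 3.89 and 0.64 in the mutants, short of 4-fold in SG-bam. Fhos, a formin that builds actin filaments, stood at 5.56 in SG, 0.97 in SG-bam and 0.01 in SG-bgcn. Mical, an enzyme that oxidises actin, stood at 75.3 in SG, 18.0 in SG-tut and 21.1 in SG-bam, lower but far from 0. Scgdelta, a sarcoglycan, stood at 15.7 in SG and at 2.79, 2.76 and 3.36 in the mutants. RpII15, a subunit of RNA polymerase II, stood at 404 in SG and at 121, 128 and 128, short of 4-fold with mutants nearly equal.

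Most genes at least 4-fold lower in a mutant had a higher level in dissected meiotic cells than in SG. SC was above SG in 11 of 14 genes (78.6%) lower in SG-tut, against 41.4% of all 232 shared genes. The same held for 6 of 8 (75%) lower in SG-bam against 41.9%, and for 7 of 9 (77.8%) lower in SG-bgcn against 40.9%. These counts share genes, as CG4073, CG31988, CG2839 and CG31460 are in each. IA-2, at 27.5 in SG, had an SC level of 1505. CG12163 had an SC level of 2150, CG31988 of 3767 and Mical of 1858. CG4073 stood at 527 in SC. CG2839, CG31460 and QIL1 were exceptions, with SC levels of 5.81, 291 and 295 below their SG levels of 42.6, 494 and 606. Among genes higher in the mutants, SC was above SG in 10 of 25, 9 of 25 and 7 of 19. The part of meiotic cells within the dissected SG samples in these differences was not tested.

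Of the 5 regulators of the spermatogonial stage listed, orb lay below the general shift, and mei-P26, Mad, bel and Su(var)2-10 lay above it. None reached 4-fold with 1 added to each level. Over all shared genes 10.8%, 10.6% and 8.64% were 4-fold higher and 6.03%, 3.39% and 4.09% lower, so nothing is called particular to these few genes. mei-P26, a TRIM-NHL protein whose message is repressed by Tut, Bam and Bgcn, had a gene level of 11.4 in SG, 40.4 in SG-bam and 30.4 in SG-bgcn, and was not listed for SG-tut. These are differences of 1.74 and 1.34 (log2), beside medians of 0.54 and 0.48 over all shared genes. Mad, the SMAD that relays BMP signals in stem cells, stood at 11.3 in SG and 47.8 in SG-bam, 4.23-fold apart in deposited level. bel, a DDX3 helicase needed for germ cell divisions, stood at 106 in SG and 208 in SG-bam. Su(var)2-10, a PIAS protein, stood at 57.9 in SG and at 96.1, 93.5 and 85.5. orb, which binds 3′ UTRs to control translation, stood lower than in SG, at 45.2 in SG, 33.6 in SG-tut and 31.3 in SG-bgcn. stg, the Cdc25 phosphatase that opens mitosis, stood at 23.5 in SG and at 19.3, 26.1 and 20.4 in the mutants, which lie around SG.

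Few genes of the later stages were among the 334. aly, which switches on the spermatocyte programme, stood at 14.1 in SG, 23.4 in SG-bam and 18.2 in SG-bgcn. simj, of the same list, stood at 14.4 in SG, 20.1 in SG-tut and 19.9 in SG-bam. Their differences were near the general shift, with list medians of 0.46, 0.57 and 0.35 (log2). fzo, the mitofusin that joins mitochondria in spermatids, was low on both sides, at 1.71 in SG, 1.49 in SG-bam and 0.93 in SG-bgcn. No gene of the list of axoneme and Y-linked fertility genes was shared.

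Over all shared genes, 154 of 232, 163 of 236 and 153 of 220 had a level above SG, and 10.8%, 10.6% and 8.64% were at least 4-fold higher. The lists of genes that act on RNA are short, and nothing is called particular to them. Among splicing regulators 2 of 2, 2 of 2 and 3 of 4 were above SG. In that list 1 of 2, 1 of 2 and 1 of 4 were at least 4-fold higher and none lower, with list medians of 2.30, 2.27 and 1.37 (log2). The gene past 4-fold was mub in each mutant. qkr54B, a KH-domain protein, was close to 4-fold with 1 added to each level, at 4.9 in SG and 21.8, 21.2 and 17.2 in the mutants. Hrb27C, an hnRNP protein, stood at 191 in SG and 416 in SG-bgcn, and mbl, a zinc-finger splicing factor, at 22.6 and 15.7. In the list of messenger RNA localisation and translation 1 of 4, 1 of 5 and 0 of 5 were at least 4-fold higher and 3, 5 and 4 above SG, with medians of 0.96, 1.91 and 0.94. gw, the GW182 protein of microRNA silencing, stood at 25.5 in SG and at 120.2, 101 and 102. shep, an RNA-binding protein, stood at 17.7 in SG and at 50.4, 74.7 and 73.7, and cpo, another, at 2.89 in SG and 13.6 in SG-bam. AGO3, an Argonaute of the piRNA pathway, stood at 49.4 in SG and at 145, 110.0 and 124, less than 3-fold apart. After the general shift was removed, gw and shep were under 4-fold and mub stayed above.

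The cleavage and polyadenylation list had 3 genes and none past 4-fold. su(f), a subunit of cleavage stimulation factor, stood at 15.9 in SG, 36.3 in SG-tut and 35.9 in SG-bam. Fip1, which brings poly(A) polymerase to the cleavage complex, stood at 81.6 in SG and 49.7 in SG-bam. Cdk12, a kinase of the polymerase tail, stood at 24.9 and 38.4 in the same groups. The list's median in SG-bam was 0.60 against 0.54 over all shared genes.

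Ribosomal protein genes had medians below the general shift. Of 7, 7 and 3 listed for both sides, none was 4-fold apart, and the list medians were 0.13, -0.31 and -0.22 (log2) beside 0.46, 0.54 and 0.48 over all shared genes. The sign of the tut median turns negative once the general shift is removed. Highly expressed genes of any kind also lay below the general shift. In the top of 4 bins of mean level the median was -0.10, -0.03 and -0.04, so nothing is called particular to ribosomal protein genes. RpL10 had a level of 5475 in SG and of 4277, 4404 and 4698 in the mutants. RpL37a stood at 5352 in SG and at 4146, 4315 and 4207, while RpS15Aa stood at 3767 in SG and at 4129, 4472 and 4209. RpS21 was the farthest, at 2872 in SG, 7021 in SG-tut and 6133 in SG-bam. Protein turnover genes were mixed. Prosalpha3, a core proteasome subunit, stood at 938 in SG, 361 in SG-tut and 418 in SG-bam. smt3, the SUMO protein, stood at 6815 in SG and 3176 in SG-bam. Uba1, the ubiquitin-activating enzyme, went the other way, at 197 in SG and 377, 351 and 361 in the mutants.

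Of adhesion and guidance genes, 5 of 6, 5 of 8 and 5 of 6 were above SG, beside 154 of 232, 163 of 236 and 153 of 220 over all shared genes. In this list 2 of 6, 2 of 8 and 1 of 6 were at least 4-fold higher and 1, 0 and 0 lower, with list medians of 1.64, 1.14 and 1.28 (log2), beside 10.8%, 10.6% and 8.64% higher over all shared genes. With the general shift removed, 0, 0 and 0 were higher and 1, 1 and 0 lower. robo1, the receptor of Slit, stood at 1.16 in SG and at 9.1, 9.91 and 7.51 in the mutants. Ephrin, the ligand of Eph receptors, stood at 10.1 in SG and at 32.4, 37.1 and 33.6. Mical was the lower one, in SG-tut. In the list of kinases, phosphatases and calcium signalling 1 of 6, 1 of 6 and 1 of 7 were at least 4-fold higher, CanA-14F in each, and 4, 5 and 5 were above SG. CanA-14F kept 4-fold with the shift removed. wdb, a regulatory subunit of phosphatase PP2A, stood at 28.1 in SG and at 70.0, 70.5 and 69.8. par-1, a polarity kinase, stood at 30.5 in SG and at 68.4, 74.3 and 68.5. flw, a catalytic subunit of phosphatase PP1, stood at 7.95 in SG and 30.9 in SG-bam. All 3 were under 4-fold. Of 4 chromatin genes, nej was past 4-fold, and dom, a chromatin remodeller, stood at 39.2 in SG, 109 in SG-tut and 115.9 in SG-bam.

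Markers of somatic cells of the testis were scarce among these genes. The hub and cyst cell list had 2. zfh1, a transcription factor of cyst stem cells, stood at 11.3 in SG, 9.99 in SG-bam and 8.98 in SG-bgcn. dally, a glypican at the cell surface, stood at 5.13 in SG and 0.15 in SG-bgcn, and at 139 in SC. Of muscle markers only Tm1, a tropomyosin, was shared, at 97.2 in SG and at 167, 158 and 213 in the mutants, so that it was below 4-fold. The lists of extracellular matrix and pigment cells, accessory gland, fat body and blood, and heat shock had no gene here. As the tables hold only genes selected for a 3′ extension, other markers were not analysed here.

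Gene length went with the difference of gene level. The Spearman correlation of the log2 difference with annotated exon bases was 0.46 over 226 genes, 0.49 over 231 and 0.38 over 213, across genes of the same tables. With the genes split by exon bases into 4 bins of like size, in the bin of shortest genes the median difference was -0.53, -0.45 and -0.22 (log2). In the next 3 bins it was 0.22, 1.07 and 0.92 in the tut comparison, 0.34, 0.98 and 1.0 in the bam comparison, and 0.43, 0.83 and 0.93 in the bgcn comparison. The genes at least 4-fold higher had a median of 4598, 4598 and 4945 exon bases, against 3280, 3288 and 3502 over all shared genes. Those at least 4-fold lower in SG-tut and SG-bam were short, with medians of 1430 and 1126.5 exon bases, and those in SG-bgcn had a median of 2549. CG4073 has 1104 exon bases and CG31460 has 717, but IA-2 has 10257 and Mical 16335. Highly expressed genes also lay near equality: in the top of 4 bins of mean level the median difference was -0.10, -0.03 and -0.04. As kit and dissection differ between the sides, the part of library making in the relation with length was not tested.

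**Figure D3:**
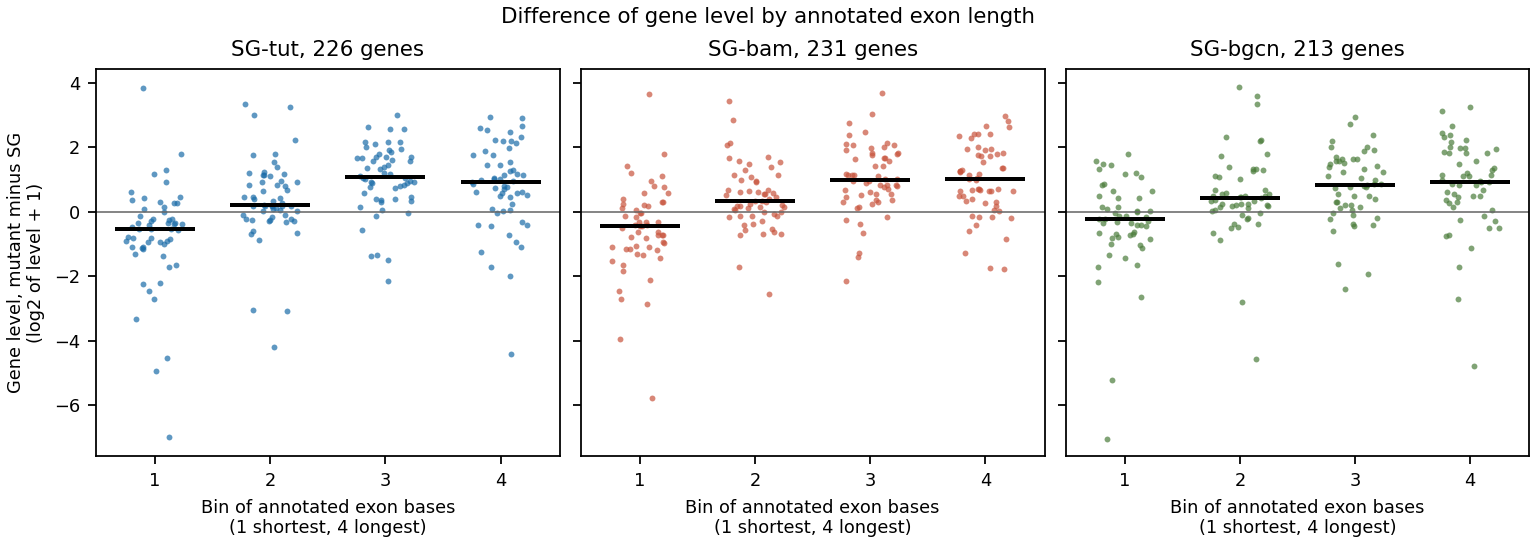
Difference of gene level, mutant minus SG in log2(level + 1) (y axis), for 4 bins of annotated exon bases (x axis, shortest to longest), 1 point per gene and a bar at each median. The medians go from -0.53, -0.45 and -0.22 in the shortest bin to 0.92, 1.0 and 0.93 in the longest.

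The place of the SG extension in the annotated gene split the genes in a similar way. Where it touched an annotated 3′ UTR, the median difference of gene level was 0.82, 0.85 and 0.75 (log2), and 22 of 136, 22 of 134 and 17 of 134 genes were at least 4-fold higher. Where it touched none, the median was 0.00, 0.05 and 0.14, and 3 of 90, 3 of 97 and 2 of 79 genes were at least 4-fold higher. The lower genes were mostly in the latter set, with 12 of 14, 8 of 8 and 7 of 9.

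Genes on the X and on the small chromosome 4 had larger median differences than those on chromosomes 2 and 3. On the X, 32 of 38, 37 of 41 and 35 of 41 genes had a higher level in the mutant. The X medians were 0.70, 1.01 and 0.52 (log2), beside 0.35, 0.34 and 0.42 on chromosomes 2 and 3. In SG-bgcn the X lay close to arms 2L and 3R, each with a median of 0.49. On chromosome 4, 7 of 9, 6 of 6 and 7 of 9 genes were above SG, with medians of 1.78, 1.86 and 1.65. Ank, PlexA and gw are on chromosome 4. Ctr1A, Lsd-2, CanA-14F, CG14440 and CG14446 are on the X. The chromosome 4 genes were also long, with a median of 5312, 6187.5 and 5980 exon bases. X-linked genes had a median of 3599.5, 4090.5 and 3789.5, against 3280, 3288 and 3502 over all shared genes. The part of length in the differences of either chromosome was not tested. Scgdelta was the X-linked gene at least 4-fold lower in SG-tut and SG-bam. With 1 added to each level, no X-linked gene was 4-fold lower in SG-bgcn.

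**Figure D4:**
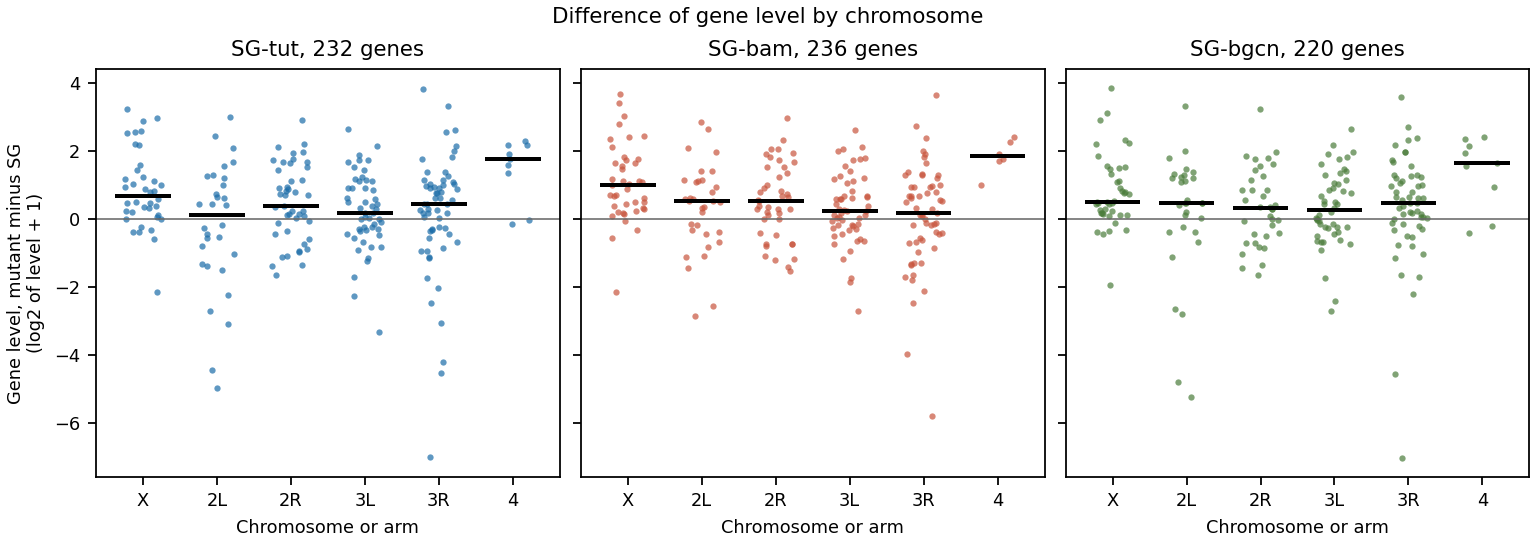
Difference of gene level, mutant minus SG in log2(level + 1) (y axis), by chromosome or chromosome arm (x axis), 1 point per gene and a bar at each median. The medians on chromosome 4 are 1.78, 1.86 and 1.65 over 9, 6 and 9 genes.

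Extensions mostly began at the same place on both sides and less often ended at the same place. The proximal end was identical for 208 of 232 (89.7%), 210 of 236 (89%) and 197 of 220 (89.5%) shared genes. In CG2839, CG7246 and CG3344 the extension begins at the base next to the gene's listed end, while in HP5 it begins inside the gene. How far the gene annotation fixed the shared proximal ends was not tested. The distal end was identical for 65, 62 and 59 genes, and both ends were identical for 43 (18.5%), 38 (16.1%) and 37 (16.8%). Where the proximal end was the same and the distal end was not, the extension was longer in SG for 105 of 165, 103 of 172 and 95 of 160 genes. The median difference was -40, -20 and -20 bases, and 57, 72 and 65 genes lay within 100 bases. hdc was an exception, at 1750 bases in SG and 10320, 10280 and 10230 bases in the mutants. Tm1 also went from 4200 bases in SG to 11060, 12710 and 12550. CanA-14F went the other way, from 5180 bases in SG to 2360, 2370 and 2350. The 3 mutants agree to within 20 bases for CanA-14F and within 90 for hdc.

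Levels and shares of an extension were compared only where both ends were identical, in 69 different genes. The share is the extension level in percent of its gene's level, and 100% also stands for extensions above the gene level. In these extensions the SC extension level was the same in both tables in 43 of 43, 38 of 38 and 37 of 37 cases. For extensions above 0 on both sides, the share was at least 4-fold higher in SG-tut than in SG in 7 of 42 genes (16.7%) and lower in 0 (0%). In SG-bam it was higher in 7 of 36 (19.4%) and lower in 1 (2.78%), and in SG-bgcn it was higher in 5 of 36 (13.9%) and lower in 3 (8.33%). The median log2 ratio of share was 0.32, 0.04 and -0.22, and 22, 18 and 18 genes lay within 2-fold. The extension level itself was at least 4-fold higher in 5 (11.9%), 8 (22.2%) and 5 (13.9%) genes, and at least 4-fold lower in 0 (0%), 1 (2.78%) and 1 (2.78%).

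In 19 genes the extension was identical in all 4 tables. The share of all 3 mutants was above SG in 9, below it in 6 and around it in 4. The mutants again lay together where SG stood far off. CkIIalpha-i3, with an extension at chr3L:708206-708607 (dm6, minus strand), had a share of 0.865% in SG and of 13.0%, 14.2% and 11.5% in the mutants. Its extension level went from 0.591 to 7.60, 9.98 and 6.07, while its gene level was 68.3 in SG and 58.7, 70.2 and 53.0. The difference thus lay in the extension, with gene levels within 1.5-fold of SG. Nup37, a protein of the nuclear pore, had a share of 0.841% in SG and of 6.32%, 4.61% and 6.41%, with gene levels of 65.3 in SG and 51.3, 59.9 and 52.3. CG11985 had a share of 0.148% in SG and of 0.609%, 0.595% and 0.516%, but its extension touches an exon of Kcmf1.

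CG2839 combined a lower gene level with a higher extension level. Its extension at chr2L:628201-628728 (dm6, plus strand), past the annotated gene end, had a level of 0.881 in SG and of 3.08, 4.64 and 3.90 in the mutants. With gene levels of 42.6 in SG and 4.15, 6.4 and 5.3 in the mutants, the share went from 2.07% to 74.2%, 72.6% and 73.5%. HP5, a heterochromatin protein, had an extension at chrX:11456780-11457109 (dm6, plus strand) identical in SG, SG-tut and SG-bgcn. Its level was 2.84 in SG, 31.9 in SG-tut and 34 in SG-bgcn, and its share 12.8% in SG and 100% in both mutants. The HP5 gene level hardly differed, at 22.2, 23.2 and 24. PAN2, a subunit of a deadenylase, and VhaPPA1-1, a subunit of the proton pump of vesicles, showed smaller differences. PAN2 had a share of 8.07% in SG and of 14%, 13.1% and 12.5%, and VhaPPA1-1 had 0.287% in SG and 0.595%, 0.978% and 0.973%.

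**Figure D5:**
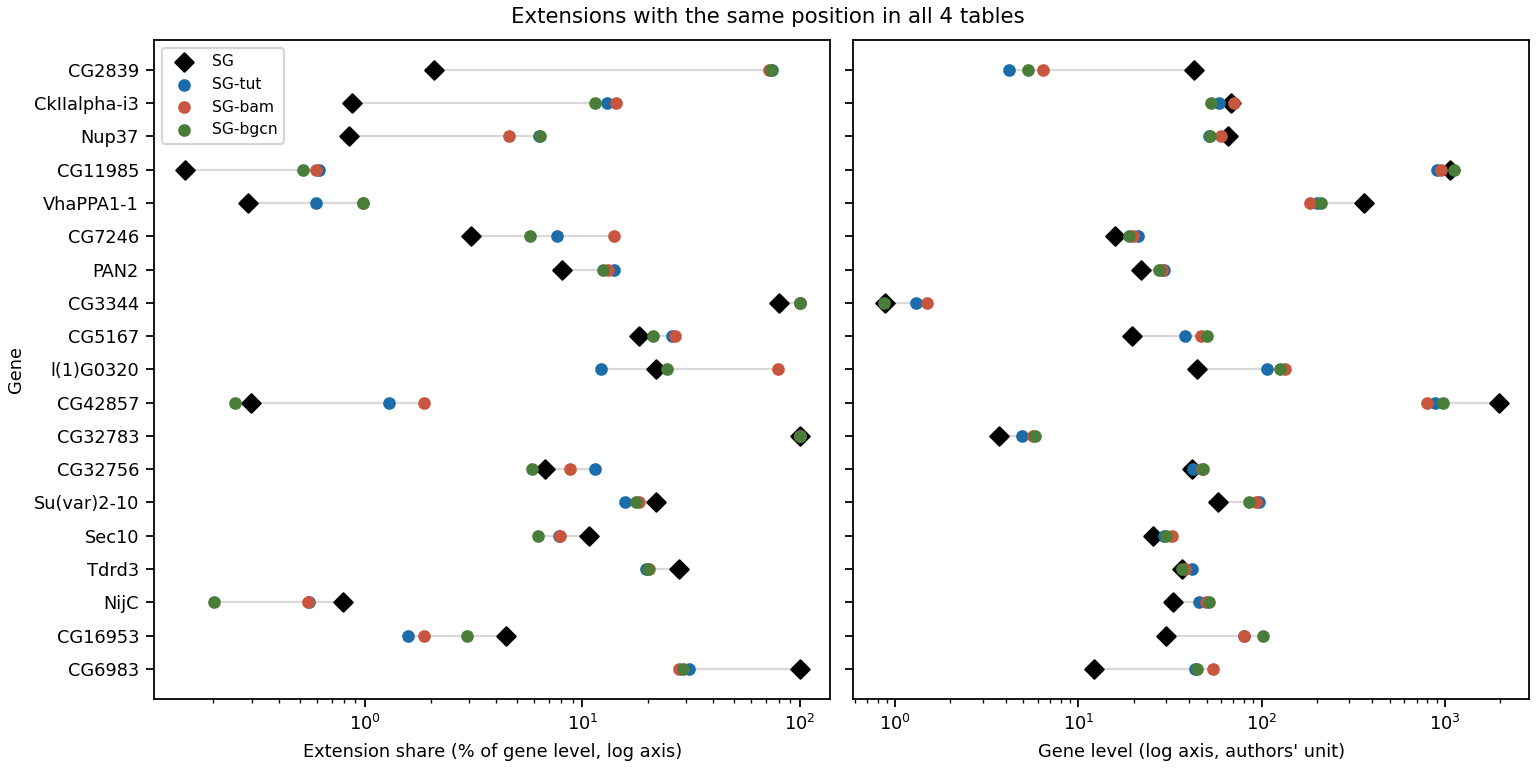
Share of the extension in percent of the gene level (left, x axis log) and gene level (right, x axis log) for the 19 genes whose extension is identical in all 4 tables, with SG as diamonds and the mutants as coloured circles. CkIIalpha-i3 and Nup37 have mutant shares far right of SG with gene levels close to SG, while CG6983 has mutant shares of 31.1%, 27.8% and 29.0% left of 100% in SG.

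In some genes a lower share in the mutants went with a higher gene level over a steady extension level. In others the extension level differed too, being lower for CG1529 and Hrb27C in SG-bgcn and higher for CG5399 in SG-tut and SG-bam. CG6983, with an extension at chr3L:8443040-8443369 (dm6, minus strand), had a share of 100% in SG and of 31.1%, 27.8% and 29.0% in the mutants. Its extension level hardly moved, at 15.5 in SG and 13.5, 15 and 12.9, while its gene level went from 12.2 to 43.5, 54.1 and 44.6. wdb had an extension of 3380 bases identical in SG, SG-tut and SG-bgcn, with a share of 100%, 33.5% and 35.6%. Its extension level was 31.7 in SG and 23.5 and 24.8 in those mutants, at gene levels of 28.1, 70.0 and 69.8. CycT, the cyclin of the elongation factor P-TEFb, had a share of 96.7% in SG and 42.4% in SG-tut. Pdk, the kinase of pyruvate dehydrogenase, had a share of 73.9% in SG, 21.1% in SG-bam and 28.3% in SG-bgcn, and its extension level was 5.87, 5.33 and 5.88. In CG6983 and wdb the SG extension level exceeds the SG gene level, so the share of 100% is a ceiling.

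The extensions of l(1)G0320 and CG42857 differed between the mutants as well. For ctp, l(2)k05819, CG3014, Scgdelta, DNApol-alpha50 and bel the extension was identical in SG and 1 mutant only. Their shares are therefore not compared between mutants. l(1)G0320 had a share of 21.8% in SG, 12.2% in SG-tut, 79.4% in SG-bam and 24.6% in SG-bgcn, so SG-bam stands alone. CG42857 had 0.298% in SG, 1.28% in SG-tut, 1.86% in SG-bam and 0.251% in SG-bgcn, so SG-bgcn lay with SG. ctp, the dynein light chain, had a share of 3.15% in SG and 0.640% in SG-bgcn, where its extension level was 4.0 against 26.5 in SG. l(2)k05819 had 18.6% in SG and 3.63% in SG-bgcn. CG3014 had 52.8% in SG and 0.770% in SG-bgcn, at an SG gene level of 0.12. Scgdelta had 13.2% in SG and 84.5% in SG-bgcn, with its gene level lower in the mutant, and its extension touches an exon of roo{}20. The largest ratio in SG-bam besides CG2839 was DNApol-alpha50, a primase subunit, at 2.92% in SG and 100% in SG-bam, and its extension touches an exon of GAPcenA. bel was the gene 4-fold lower in SG-bam, at 5.71% in SG and 0.679%, and its extension touches an exon of CG42489. The strand setting of the counting is not stated, so reads of such neighbours cannot be told apart from those of the gene named.

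Other extensions differed less in share between dissected cells and mutants. Tdrd3, a Tudor protein, had a share of 27.8% in SG and of 19.7%, 20.3% and 20%, and its extension touches an exon of Helz. Su(var)2-10 had 21.9% in SG and 15.7%, 18.3% and 17.6%, and its extension touches an exon of GstE13. orb had 22.3% in SG and 12.4% in SG-tut, with an extension of 2300 bases. CG32783 was at the ceiling of 100% in all 4 groups, and its extension touches an exon of Vap33.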

How the data were processed

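Tools named in the submitters' processing notes, with no role given, are TopHat2 2.1.0, Trimmomatic 0.33, Cuffdiff 2.2.1 and Cufflinks 2.2.1, besides DESeq2, CASAVA and FastQC 0.11.3; the build is dm6. Each of 4 deposited tables holds, per the file headers, the coordinates and length of an extension, group averages of extension and gene level (levels in an unnamed unit), the share of the extension as a fraction, the authors' log2 folds against SC, and their p-value and FDR. The share equals the level ratio with 1e-05 added to both terms, capped at 1, in 751, 627, 638 and 618 rows. Genes were joined by FlyBase ID. Differences are log2(level + 1), mutant minus SG; share ratios used identical extensions above 0 in both. Python 3.11.15 and pandas 2.3.3 were used; counting was tested on simulated data. Places come from Ensembl release 115 (BDGP6.54, the dm6 assembly), which matched 327 of 334 genes. Named genes were the bam, bgcn, tut, mei-P26 and stg genes, the 8 largest differences per direction and mutant, and up to 4 per list, with a few others chosen after their values were seen. Members and 21 gene lists were chosen with earlier results of these data known. The planned test needed values per library, so only descriptions are given. Alternatives were other pseudocounts, thresholds, centring, level minimums, uncapped shares and leaving out extensions on other genes' exons.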

Additional observations from a re-analysis of the deposited data

How the results depend on the processing

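No paired analysis was possible because the tables hold group averages only; leaving out libraries and motif counts (no genome was used) were not run. Of 112 alternative counts, 70 stayed within 1.5 times and 42 moved. Of 207 alternative values of named genes past 4-fold, 194 stayed past it, 13 fell below it, all under centring, and 0 reversed. A pseudocount of 0.1 or none can only widen a difference, so only centring could take a value below 4-fold. The medians removed by centring, 0.46, 0.54 and 0.48 (log2), are too small to reverse such a value. The 194 are therefore no measure of robustness. Counts are given as higher / lower. At 2-fold the gene level gave 75 / 29 (tut), 78 / 26 (bam), 74 / 20 (bgcn) and 40 / 11 (nearest mutant); at 8-fold 4 / 8, 4 / 2, 5 / 4 and 1 / 1. Centred on the median it gave 14 higher (tut), 10 / 14 (bam), 8 / 14 (bgcn) and 7 higher (nearest). With a level of at least 1 in both groups, 8, 5 and 4 genes were lower. Without extensions on other genes' exons, 5 were lower in bam. A pseudocount of 0.1 gave 29 higher in bgcn and none gave 30. For the share, 2-fold gave 10 lower (tut), 8 lower (bam) and 8 / 10 (bgcn); 8-fold gave 3 higher, 3 higher and 2 / 1. Uncapped shares gave 1 lower (tut) and 3 lower (bam), and centring 2 lower (tut). Without other genes' exons, 0 were lower in bam, and with gene level at least 10 in both, bgcn gave 3 / 1. Stricter limits leave fewer genes by construction; other causes were not tested. Averages without depth give no error for any value.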
